A study of Mus musculus with 25 samples.

Results

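Axon guidance genes encode the cues that steer growing axons and the receptors that read them. The genes described here were the 70 whose symbol in the array's annotation names a semaphorin of class 3 to 7, a plexin, a neuropilin, an Eph receptor, an ephrin, a Slit, a Robo, a netrin, an Unc5 receptor or Dcc. They were measured by 153 probe sets, out of 45037 probe sets and 18193 named genes on the array. Each gene was represented by its leading probe set, the one with the highest mean log2 signal over the 25 arrays. The set held 35 ligands and 33 receptors. Plxna4os1, an antisense RNA, and Unc5cl also matched the symbol rule and are neither, so they are counted apart.

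Tissue came from the CA1 field of the hippocampus of adult females of the inbred strain Balb c/J, with 1 Affymetrix Mouse 430_2.0 array for each mouse. The 11 handled mice had been taken from the mother for 15 min each morning from postnatal day 1 to day 14, and the 14 non-handled mice had not. RNA was extracted with RNA/DNA columns in 7 handled and 10 non-handled mice, and with Trizol in 4 handled and 4 non-handled mice. The Trizol and column mice were separate sets of animals, so extraction method and set of animals cannot be told apart. Each litter was either handled or non-handled, and the mice came from fewer litters than there were mice. Which mice were litter mates is not given in the sources used here, so the p-values below treat litter mates as independent and may be too small.

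Secreted and membrane-bound cues attract or repel axons during development, and in the adult hippocampus the same families continue to act at synapses and dendritic spines. Class 3 semaphorins bind neuropilins that signal through plexins, and other semaphorins bind plexins directly. Ephrins bind Eph receptors with signalling in both cells, Slits bind Robos, and netrins act through Dcc and the Unc5 receptors.

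Mean MAS 5.0 signal, which is a linear intensity, ran from 737 to 910 per array, median signal from 79.6 to 163, and the pairwise correlation of log2 signal from 0.806 to 0.919. No pair held identical values. The non-handled column mouse NH162 had a 3′ to 5′ signal ratio of the Actb control probes of 3.24 log2 units, where every other mouse had at most 2.12. Without it, 2 guidance genes were called higher and 8 lower for handling, and 15 higher and 17 lower for extraction. Over all 45037 probe sets, 1558 were then called higher and 3323 lower for handling, and 7617 and 10587 for extraction. Among genes that mark CA1 pyramidal cells, all 6 measured were in the brighter part of the array, with a summed signal of 22595 to 39536 in handled and 20163 to 40222 in non-handled mice. The summed signal of 5 choroid plexus markers with columns was 424 to 581 in handled mice and 484 to 945 in non-handled mice, with medians of 534 and 695. With Trizol it was 419 to 477 in handled mice and 622 to 3235 in non-handled mice, with medians of 450 and 740. The Trizol ranges, of 4 mice in each group, did not overlap. Of these 5 markers, 2 were in the brighter part of the array. How often such sums lie apart by chance was not tested. These are bulk samples, in which fewer cells of a type and less RNA per cell cannot be told apart.

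The first comparison asked which guidance genes differed between adult handled and non-handled mice. With handling and extraction as terms in limma, and Benjamini-Hochberg adjustment over all 45037 probe sets, 11 of the 70 genes were called at an adjusted p under 0.05. Of these, 3 were higher in handled mice (4.29%) and 8 were lower (11.4%). Over all 18193 leading probe sets, 14.2% were called, 4.47% higher and 9.7% lower, so the shares of guidance genes lie near those of the whole array. The semaphorins accounted for 5 of the 11 calls, with 1 of 20 higher and 4 of 20 lower. Among ligands 1 rose and 5 fell, and among receptors 2 rose and 2 fell. The median difference of the 70 genes was -0.02 on the log2 scale, and the median of all leading probe sets was -0.12. The 59 genes that were not called had differences from -0.91 to 0.84. With arrays brought to the same distribution by quantile normalization, 1 gene was called higher and 5 lower, and 6 of the 11 calls remained. With log2 signals given a common mean and variance on every array, 2 were higher and 4 lower, and 5 of the 11 calls remained. No called gene changed sign under either scaling, and the median over all leading probe sets was then -0.01. Over all 45037 probe sets, 1614 were called higher and 3571 lower without further scaling. These counts were 1319 and 1595 with quantile normalization, and 1719 and 1850 with the common mean and variance.

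**Figure D1:**
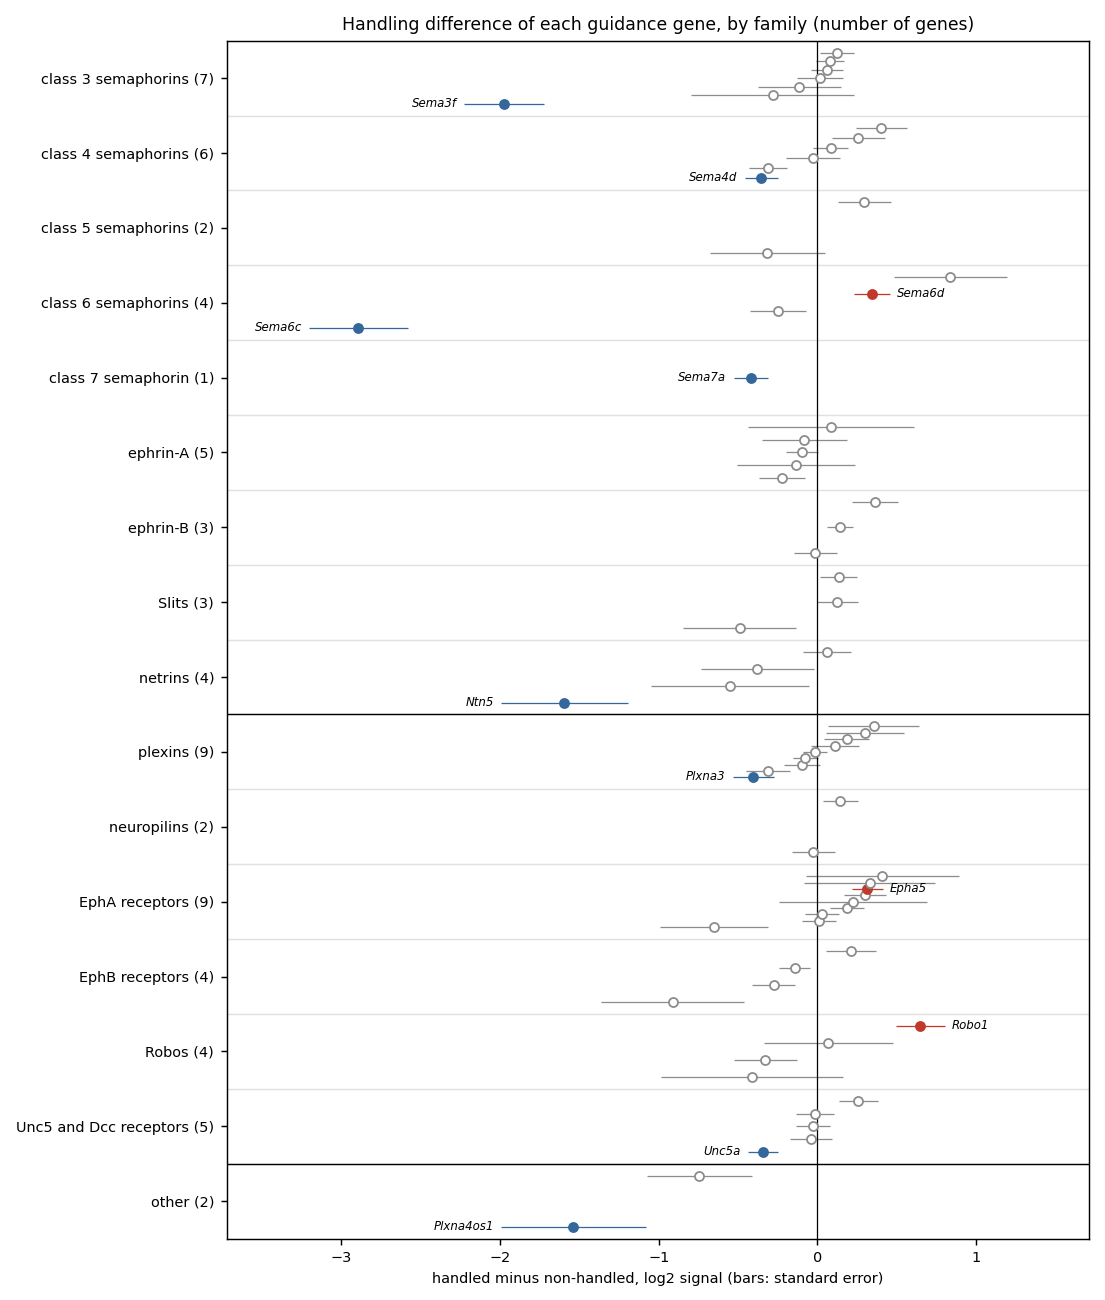
Handled minus non-handled difference in log2 signal of the leading probe set of each of the 70 genes, by family, from the fit with extraction as a term. Bars are 1 standard error, filled points are called at an adjusted p under 0.05 (red higher, blue lower in handled mice), and open points are not called. Sema6c and Sema3f lie farthest to the left, and Robo1 is the called gene farthest to the right.

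Sema6c, a transmembrane class 6 semaphorin whose relatives signal through plexin-A receptors, had the largest handling difference of the 70 genes. With columns, its signal had a lowest value of 144, a median of 277 and a highest of 422 in handled mice, against 1622, 3165 and 5710 in non-handled mice. With Trizol it was 288, 935, 1322 and 1673 in handled mice, and 1428, 1897, 2053 and 3086 in non-handled mice. Every handled mouse lay below every non-handled mouse with columns, while 1 handled mouse overlapped the non-handled ones with Trizol. The fitted difference was -2.89 ± 0.31 log2 units (standard error, 11 handled and 14 non-handled mice; limma adjusted p = 2.19e-07). A dimmer probe set of Sema6c also fell, with a difference of -1.79 ± 0.32 (limma adjusted p = 0.000522), and the third probe set differed by 0.25 ± 0.47 (adjusted p = 0.764).

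Sema3f, a secreted semaphorin that repels hippocampal axons through neuropilin-2 and plexin-A3, showed the same arrangement. With columns its signal had a lowest value of 119, a median of 197 and a highest of 399 in handled mice, against 736, 1317 and 1697 in non-handled mice. With Trizol it was 473, 524, 601 and 951 in handled mice, and 588, 779, 1132 and 3712 in non-handled mice. The groups were apart with columns and overlapped with Trizol. The difference was -1.97 ± 0.25 log2 units (limma adjusted p = 3.99e-06). The leading probe set of Sema3f is of a type that the array maker marks as able to bind other transcripts, and a second, dimmer probe set differed by -1.32 ± 0.42 (adjusted p = 0.038). Both receptors of Sema3f were measured: Plxna3 was lower by a smaller amount, given below, and Nrp2 differed by -0.03 ± 0.14 (adjusted p = 0.925).

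**Figure D2:**
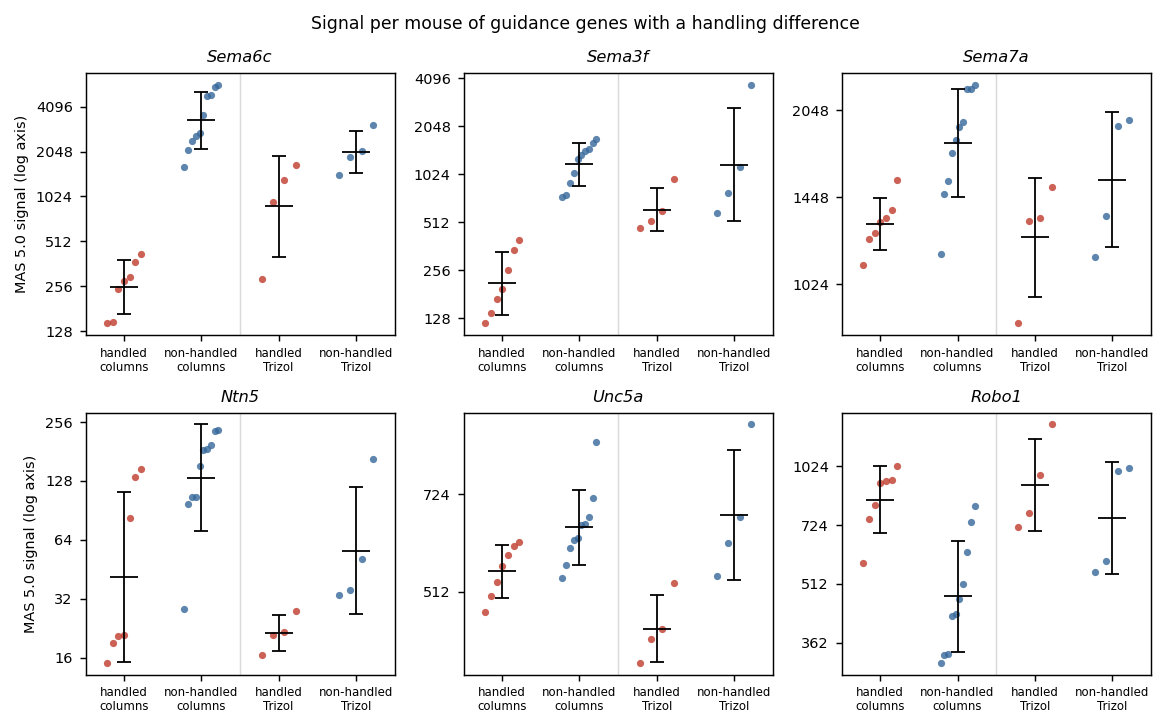
MAS 5.0 signal (log axis, a scale of its own in each panel) of the leading probe set of 6 guidance genes, 1 point per mouse, in handled (red) and non-handled (blue) mice by extraction method. Horizontal bars are the mean of log2 signal and vertical bars its SD (n = 7, 10, 4 and 4 from left to right). Of these 6 genes, Sema6c and Sema3f separate handled from non-handled mice with columns, and Ntn5 and Unc5a do so with Trizol.

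The other called ligands that fell were Sema7a, Sema4d and Ntn5. Sema7a, a semaphorin tethered to the membrane by a lipid anchor that acts through integrins and plexin-C1, had a lowest signal of 876, a median of 1318 and a highest of 1552 in handled mice, against 1143, 1868 and 2263 in non-handled mice. The groups overlapped under both extraction methods, and the difference was -0.42 ± 0.11 (limma adjusted p = 0.0116). Sema4d, which binds plexin-B1, ran from 233 to 464 with a median of 347 in handled mice, and from 317 to 652 with a median of 450 in non-handled mice. Its difference was -0.35 ± 0.10 (limma adjusted p = 0.0263), and its receptor Plxnb1 differed by -0.10 ± 0.11 (adjusted p = 0.604). The call of Sema4d was lost without the handled mouse H109 (adjusted p = 0.0594) or H116 (0.0529).

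Ntn5, a member of the netrin family, is a dim probe set here. Its signal with columns ran from 15.1 to 147 with a median of 21.0 in handled mice, and from 28.5 to 232 with a median of 169 in non-handled mice. With Trizol it was 16.6, 20.8, 21.7 and 27.7 in handled mice, and 33.3, 35.5, 50.9 and 166 in non-handled mice. All 4 handled Trizol mice lay below all 4 non-handled ones, and with columns 3 handled mice overlapped the non-handled range. The fitted difference was -1.59 ± 0.40 (limma adjusted p = 0.00959).

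The regions at the starts of Sema6c, Sema7a, Ntn5 and Robo1 are shown because the handling calls of these genes, with that of Sema3f, were kept whichever mouse was left out and under both scalings of the arrays. Each run covers 250 bases before and 50 bases after the first listed start in RefSeq (GRCm38.p6), 5′ to 3′ on the gene's strand. Of the 70 genes, 59 had such a window, and Sema3f was not among them. Capitals mark a GC box (GGGCGG, or CCGCCC on the other strand) or a cyclic AMP response element core (TGACG, or CGTCA on the other strand).
Sema6c, chr3:95160170-95160469, plus strand: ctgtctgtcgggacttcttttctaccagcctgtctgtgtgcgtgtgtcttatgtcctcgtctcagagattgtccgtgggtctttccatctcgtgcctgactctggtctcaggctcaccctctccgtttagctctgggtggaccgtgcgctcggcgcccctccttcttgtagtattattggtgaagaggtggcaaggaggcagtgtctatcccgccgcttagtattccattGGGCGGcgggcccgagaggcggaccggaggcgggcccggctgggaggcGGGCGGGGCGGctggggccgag
Sema7a, chr9:57939862-57940161, plus strand: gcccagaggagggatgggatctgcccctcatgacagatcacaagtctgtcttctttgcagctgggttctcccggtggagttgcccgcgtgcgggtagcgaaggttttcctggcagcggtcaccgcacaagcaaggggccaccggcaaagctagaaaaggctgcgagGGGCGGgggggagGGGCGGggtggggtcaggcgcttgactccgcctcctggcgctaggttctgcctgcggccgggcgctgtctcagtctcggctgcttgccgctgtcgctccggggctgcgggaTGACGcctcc
Ntn5, chr7:45683772-45684071, plus strand: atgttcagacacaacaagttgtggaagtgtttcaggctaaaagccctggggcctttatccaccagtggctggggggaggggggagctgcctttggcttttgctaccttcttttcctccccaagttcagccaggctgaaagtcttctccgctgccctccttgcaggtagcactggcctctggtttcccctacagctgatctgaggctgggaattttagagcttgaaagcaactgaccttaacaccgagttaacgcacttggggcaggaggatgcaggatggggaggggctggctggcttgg
Robo1, chr16:72662899-72663198, plus strand: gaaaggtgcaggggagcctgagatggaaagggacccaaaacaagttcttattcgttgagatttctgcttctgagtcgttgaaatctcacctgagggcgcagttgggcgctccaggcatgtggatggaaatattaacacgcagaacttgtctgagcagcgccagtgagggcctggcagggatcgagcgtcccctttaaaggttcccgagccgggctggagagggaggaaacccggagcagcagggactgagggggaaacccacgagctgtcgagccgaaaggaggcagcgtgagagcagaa
The window of Sema6c held 3 GC boxes, a pair of which share a base, that of Sema7a held 2 GC boxes and 1 TGACG, and those of Ntn5 and Robo1 held neither. Over all 32851 windows of this length, 35.7% held a GC box and 20.8% held TGACG on either strand. The GC box and TGACG matches did not overlap each other. The windows of Sema6c and Sema7a held 23 CpG dinucleotides each, that of Robo1 15 and that of Ntn5 3, beside a median of 7 over all windows. Sema6c has 2 listed starts, of which the first is printed.

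Among receptors, Robo1 and Epha5 rose and Unc5a and Plxna3 fell. Robo1, a receptor for the Slits, had with columns a lowest signal of 578, a median of 929 and a highest of 1027 in handled mice, against 322, 448 and 808 in non-handled mice. With Trizol it was 715, 778, 971 and 1311 in handled mice, and 549, 587, 997 and 1012 in non-handled mice. With columns, 5 of 7 handled mice lay above every non-handled mouse, and with Trizol the groups overlapped. The difference was 0.65 ± 0.15 (limma adjusted p = 0.00668). The other probe sets of Robo1 differed by -0.06 and -0.27 and were not called. None of the Slits that Robo1 binds was called for handling, and the one with the smallest p, Slit3, differed by -0.49 ± 0.36 (adjusted p = 0.383).

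Epha5, a receptor for A-type ephrins found on hippocampal neurons, had with columns a lowest signal of 2068, a median of 2427 and a highest of 2769 in handled mice, against 1526, 1939 and 3229 in non-handled mice. With Trizol it was 5157, 5522, 5954 and 7100 in handled mice, and 3558, 4397, 4472 and 5806 in non-handled mice. The groups overlapped within each method, and the levels with columns lay below all of those with Trizol. The handling difference was 0.32 ± 0.10 (limma adjusted p = 0.0286), and another Epha5 probe set rose by 0.39 ± 0.09 (adjusted p = 0.00455). The call of the leading probe set was lost without H108 (adjusted p = 0.0549), H109 (0.0513) or NH138 (0.0511). No ephrin was called for handling, and among A-type ephrins the smallest p was that of Efna5, at -0.22 ± 0.14 (adjusted p = 0.312).

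Unc5a, a netrin receptor that mediates repulsion, ran from 477 to 610 with a median of 561 in handled and from 538 to 872 with a median of 636 in non-handled mice with columns. With Trizol it was 398, 433, 448 and 528 in handled mice, and 541, 610, 669 and 929 in non-handled mice. The groups did not overlap with Trizol and did with columns. Sema3d, which was not called, also had groups apart with Trizol, with handled mice above, while its difference with columns was -0.17 ± 0.18. With labels drawn at random, groups of 4 against 4 mice lie wholly apart with a probability of 0.0286. How often groups of this size lie apart over the whole array was not counted. The fitted difference of Unc5a was -0.34 ± 0.10 (limma adjusted p = 0.0197), with an adjusted p of 0.0983 when arrays were given a common mean and variance.

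The calls of Plxna3, Sema6d and Plxna4os1 were lost under both scalings, as were those of Sema4d and Epha5. Plxna3, the plexin partner of neuropilin-2, ran from 159 to 327 with a median of 222 in handled mice and from 183 to 465 with a median of 308 in non-handled mice. Its difference was -0.40 ± 0.13 (limma adjusted p = 0.0373), and it stayed called in 15 of 25 fits that left out 1 mouse, with adjusted p up to 0.0674. Sema6d, a class 6 semaphorin that binds plexin-A1, ran from 2902 to 5035 with a median of 3249 in handled mice and from 1745 to 4685 with a median of 2723 in non-handled mice. Its difference was 0.34 ± 0.11 (adjusted p = 0.0438), it stayed called in 12 of 25 such fits, with adjusted p up to 0.105 without H109, and it was -0.10 ± 0.16 within Trizol. Plxna4os1, a dim probe set, ran from 1.30 to 78.8 with a median of 26.9 in handled mice and from 31.5 to 86.7 with a median of 55.3 in non-handled mice. Its difference was -1.54 ± 0.46 (adjusted p = 0.0264), and the call was lost without H108 (0.052) or H109 (0.0509).

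In the families without a call, the member with the smallest p stayed above the threshold. Efnb2, a B-type ephrin that acts at hippocampal synapses, differed by 0.36 ± 0.14 (limma adjusted p = 0.0905), Ephb3 by -0.28 ± 0.14 (0.178), Sema5a by 0.29 ± 0.17 (0.252) and Nrp1 by 0.14 ± 0.11 (0.401). Efnb2 was called when H126, H130 or NH138 was left out, with adjusted p of 0.0209, 0.0417 and 0.0332. Markers of other cells that moved with handling were Ermn of oligodendrocytes (0.35 ± 0.08), Aqp4 of astrocytes (0.32 ± 0.09) and P2ry12 of microglia (0.24 ± 0.08), 1 of 7, 1 of 6 and 1 of 6 markers. Cldn5 and Kdr, 2 of 8 vascular markers, differed by -0.49 ± 0.11 and -0.44 ± 0.12, and Clic6 and Folr1, 2 of 5 choroid plexus markers, by -0.63 ± 0.17 and -0.86 ± 0.25. Of all leading probe sets, 4.47% were called higher and 9.7% lower. The part of these cells in the handling differences was not tested. None of the 6 CA1, 5 CA3 and 6 dentate gyrus markers was called.

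The handling difference was then taken within each extraction method, which uses separate mice. With columns, 9 guidance genes were called, 5 higher and 4 lower, where 14.8% of all leading probe sets were called, 5.5% higher and 9.31% lower. The 4 that fell, Sema6c, Sema3f, Sema7a and Ntn5, were all lower in handled Trizol mice as well. Of the 5 that rose, Robo1 was higher in handled Trizol mice, at 0.28 ± 0.24, and the other 4 were not. These were Sema6d, Sema4f (0.63 ± 0.19 with columns and -0.06 ± 0.21 with Trizol), Sema6b (1.28 ± 0.40 and -0.07 ± 0.52) and Efnb2 (0.62 ± 0.13 and -0.16 ± 0.25). The leading probe set of Sema4f, like that of Sema3f, is of the type able to bind other transcripts. In the fit over all mice it differed by 0.40 and the other Sema4f probe set by -0.18, neither called. Of the 3 other Sema6d probe sets, 1 had the sign of the leading one in that fit. Over all leading probe sets called with columns, 75.9% of those higher and 83.6% of those lower had the same direction with Trizol. With columns, 6 of 7 handled mice had an Efnb2 signal above every non-handled mouse, at 1053 to 1870 in handled and 792 to 1415 in non-handled mice.

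**Figure D3:**
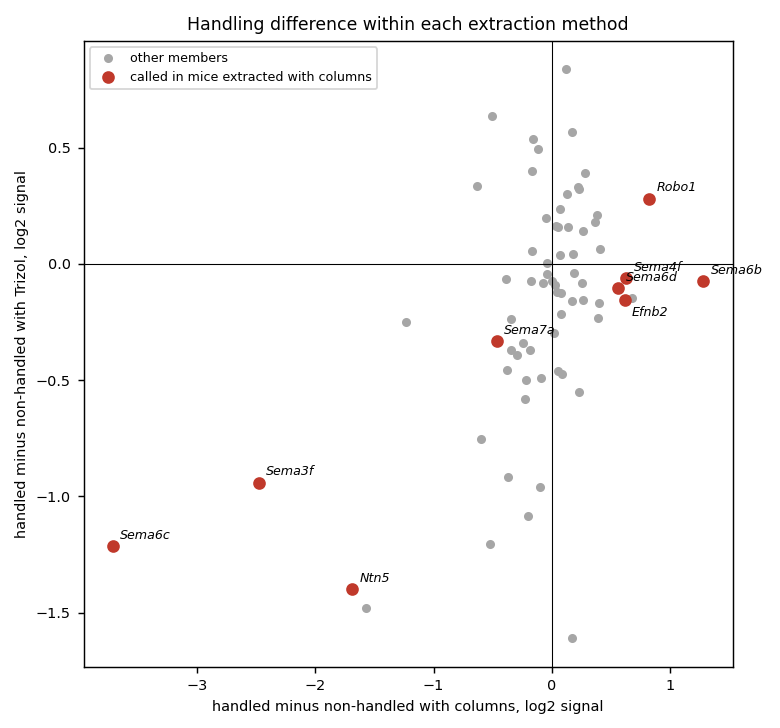
Handled minus non-handled difference in log2 signal of the 70 genes within the 17 mice extracted with columns (horizontal) and within the 8 mice extracted with Trizol (vertical). Red points are the 9 genes called with columns, of which the 4 that fell lie at the lower left and Robo1 alone of the 5 that rose lies above 0 with Trizol.

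No probe set of the 45037 was called within Trizol (0.0% of leading probe sets), where limma had 4 mice against 4. For the 9 genes called with columns, an exact two-sided permutation test over the 8 Trizol mice, added after the data were seen, gave p = 0.0286 for Ntn5, the smallest that 4 against 4 allows, and p = 0.0571 for Sema6c. The other 7 had exact p from 0.171 to 1.0, and after Benjamini-Hochberg adjustment over the 9 genes the smallest was 0.257. An adjusted p under 0.05 would have needed most of the 9 genes at an exact p of 0.0286. The adjusted values therefore cannot decide on single genes. Sema6c differed by -3.71 ± 0.25 with columns and -1.21 ± 0.40 with Trizol. The difference between these effects was -2.50 ± 0.50 (limma interaction term, adjusted p = 0.0424), the only interaction called among the 70 genes, where 0.077% of leading probe sets were called. This call was kept in 7 of 25 fits that left out 1 mouse, with adjusted p up to 0.208 without H130.

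The second comparison set columns against Trizol. It called 33 of the 70 guidance genes, 15 higher (21.4%) and 18 lower (25.7%) with columns, where 41.2% of all leading probe sets were called, 23.7% higher and 17.5% lower. Among ligands 8 were higher and 5 lower, and among receptors 7 were higher and 13 lower. Quantile normalization gave 20 higher and 13 lower, and the same mean and variance gave 21 and 13, with no called gene changing sign. Under either scaling the median difference over all leading probe sets was 0.26 log2 units, beside -0.02 without it. Over all 45037 probe sets, 10756 were called higher and 8091 lower with quantile normalization, and 10769 and 7873 with the same mean and variance. With the 3′ to 5′ signal ratios of the Gapdh and Actb control probes as covariates, 7 guidance genes were called higher and 11 lower. Over all 45037 probe sets, 7430 higher and 10500 lower without the covariates became 4720 and 6568 with them. The guidance gene calls lost in the fit with covariates included those of Epha2, Epha10, Robo1, Slit1, Sema3e, Sema4d, Sema5a, Ntn4, Ntn5, Plxna3, Plxnb1 and Plxnb2. The Gapdh ratio was 1.29 ± 0.18 log2 units with columns (SD, n = 17) and 1.71 ± 0.16 with Trizol (SD, n = 8), and the Actb ratio was 1.85 ± 0.39 with columns and 1.85 ± 0.20 with Trizol.

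**Figure D4:**
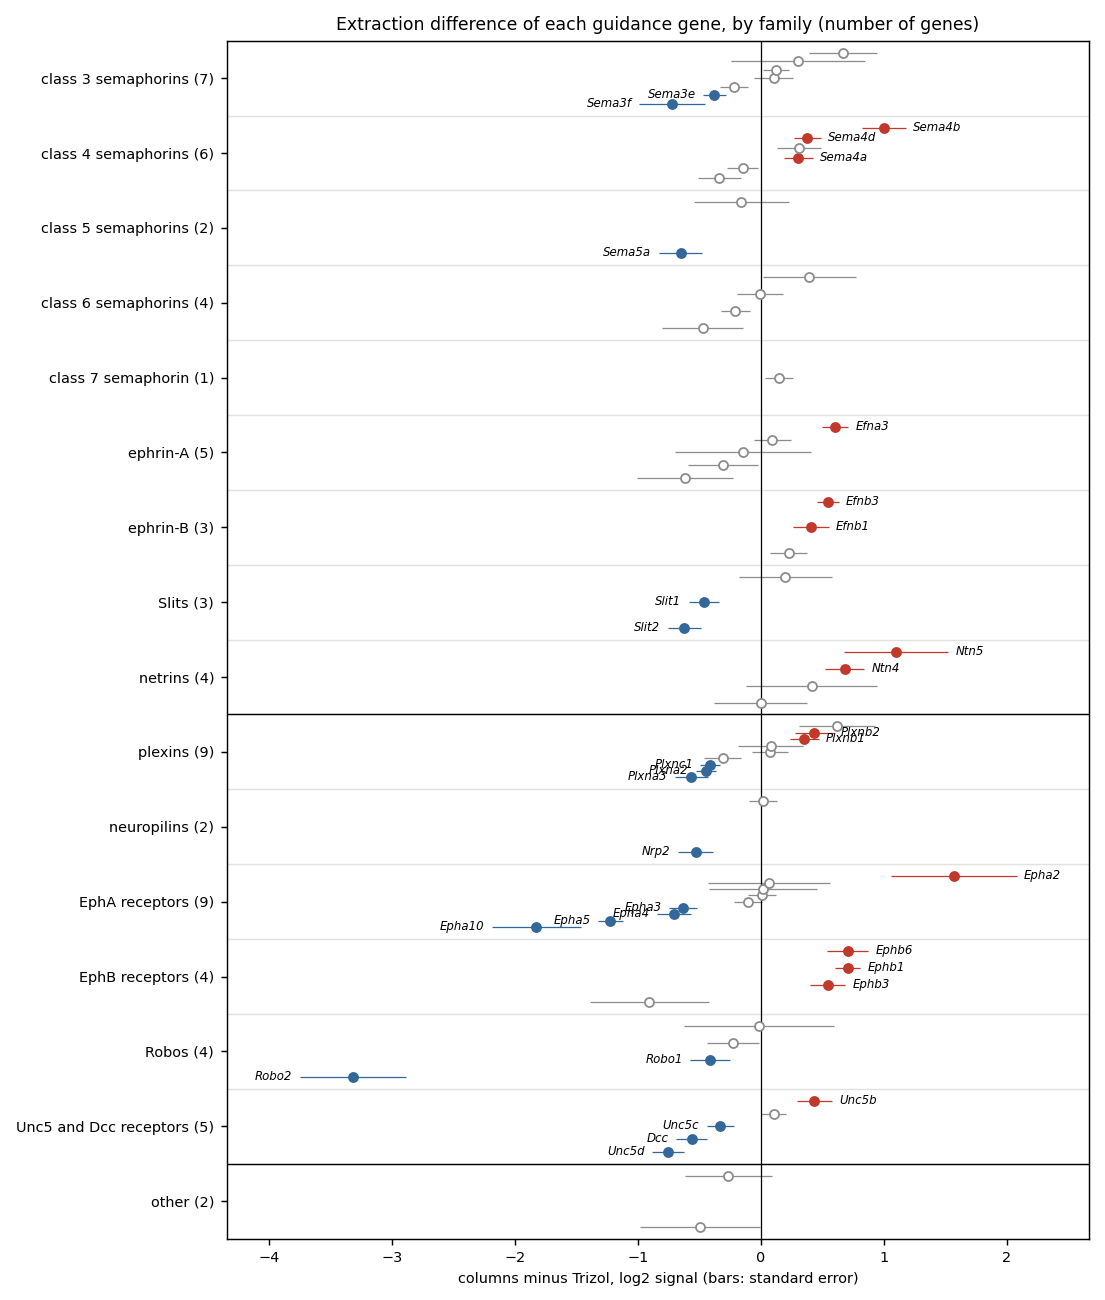
Columns minus Trizol difference in log2 signal of the leading probe set of each of the 70 genes, by family, from the fit with handling as a term. Bars are 1 standard error, filled points are called (red higher, blue lower with columns) and open points are not called. EphB receptors, A-type and B-type ephrins, netrins and class 4 semaphorins have called members on the right only. Slits, Robos, neuropilins and class 3 and 5 semaphorins have them on the left only, and Robo2 lies farthest to the left.

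Of the Eph receptors for A-type ephrins, 1 of 9 was higher and 4 lower, while of the EphB receptors 3 of 4 were higher and none lower, counts that were the same under both scalings. The difference between these families was not tested, and Ephb4 differed by -0.91 ± 0.48 (limma adjusted p = 0.143). In non-handled mice alone, 1 of the 4 EphB receptors was called higher. Epha5 had the smallest p, with all column mice (1526 to 3229) below all Trizol mice (3558 to 7100) and a difference of -1.22 ± 0.10 (limma adjusted p = 5.57e-12). Epha10 differed by -1.83 ± 0.36 (adjusted p = 8.17e-05), with 29.3 to 177 with columns and 76.5 to 637 with Trizol. With the control-probe covariates the Epha10 difference was -0.54 (adjusted p = 0.576). Epha2, a dim probe set and the EphA member that was higher, differed by 1.57 ± 0.51 (adjusted p = 0.0133).

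Ephb1, a receptor for B-type ephrins, had a signal of 540 to 914 with a median of 675 with columns, and of 330 to 622 with a median of 404 with Trizol. The highest Trizol mouse alone lay within the range with columns, and Ephb1 differed by 0.71 ± 0.10 (limma adjusted p = 6.42e-07). Ephb6, a member of the family without kinase activity, differed by 0.71 ± 0.17 (adjusted p = 0.00068), and Ephb3 by 0.54 ± 0.14 (0.00233). Of the B-type ephrins, Efnb3 differed by 0.55 ± 0.09 (3.53e-06), with 1080 to 1752 with columns and 874 to 1231 with Trizol, and Efnb1 by 0.41 ± 0.14 (0.0218). The Efnb1 call was lost without H131 (adjusted p = 0.0574) or NH146 (0.0975). Efna3 was the only A-type ephrin called by its leading probe set, at 0.61 ± 0.11 (1.63e-05).

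The Slit and Robo genes that were called were all lower with columns. Robo2, which like Robo1 binds Slits, had signals of 3.74 to 68.2 with a median of 36.8 with columns and 184 to 400 with a median of 276 with Trizol. The ranges did not overlap, and the difference of -3.32 ± 0.43 (limma adjusted p = 8.82e-08) was the largest extraction difference among leading probe sets of the 70 genes. Robo1 differed by -0.41 ± 0.16 (adjusted p = 0.0439), a call kept in 13 of 25 fits that left out 1 mouse and under neither scaling. Slit1 differed by -0.46 ± 0.12 (0.00241), with 525 to 1098 with columns and 875 to 1321 with Trizol. Slit2 differed by -0.62 ± 0.13 (0.000262), with 460 to 1098 with columns and 684 to 1714 with Trizol.

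Of the netrin receptors, Unc5d (-0.76 ± 0.13, limma adjusted p = 1.13e-05) and Dcc (-0.56 ± 0.13, 0.000452) had the largest falls, Unc5c fell too, and Unc5b was higher (0.44 ± 0.14, 0.0127). With quantile normalization Dcc differed by -0.30 and was not called (adjusted p = 0.0548), and with the same mean and variance per array Unc5c differed by -0.22 and was not called (0.131). The netrins Ntn4 (0.68 ± 0.16, 0.000592) and Ntn5 (adjusted p = 0.0373, 15.1 to 232 with columns and 16.6 to 166 with Trizol) were higher with columns, and the Ntn5 call was kept in 14 of 25 fits that left out 1 mouse. Of the plexins, Plxna2 (-0.44 ± 0.08, 3.82e-05), Plxna3 (-0.56 ± 0.14, 0.00093) and Plxnc1 were lower and Plxnb1 (0.35 ± 0.12, 0.0154) and Plxnb2 (0.44 ± 0.16, 0.0267) were higher. With quantile normalization Plxna3 differed by -0.25 and was not called (0.127). The Plxnb1 call was lost without H130 (adjusted p = 0.0524), and the Plxnb2 call without H113 (0.0682) or NH144 (0.106). Nrp2 was lower (-0.53 ± 0.15, 0.00318), and that call was lost under both scalings.

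Among leading probe sets of semaphorins, class 4 members were called only as higher and class 3 and 5 members only as lower in this fit. Under the scalings, 2 or 3 class 3 members were called higher. The other probe set of Sema5b, of class 5, was called higher with columns, at 1.49. Sema4b, a transmembrane class 4 semaphorin, ran from 374 to 1029 with columns and from 230 to 505 with Trizol, and differed by 1.00 ± 0.18 (limma adjusted p = 1.69e-05). Sema4d was higher by 0.38 ± 0.11 (0.00585), and Sema4a was the other called class 4 member. Sema3e, which acts through plexin-D1, differed by -0.38 ± 0.09 (0.00121), and Sema3f by -0.72 ± 0.27 (0.0317). The Sema3f call was lost under both scalings (adjusted p = 0.0813 and 0.11), and the difference was -1.53 ± 0.29 among handled mice and 0.0037 ± 0.32 among non-handled ones (limma interaction -1.54 ± 0.48, adjusted p = 0.436). Sema5a differed by -0.65 ± 0.18 (0.00313), and the call was lost under both scalings. With the control-probe covariates it differed by -0.17 (adjusted p = 0.78).

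Markers of other cells moved with extraction as well. All 7 oligodendrocyte and all 6 astrocyte markers were higher with columns, as were 4 of 6 microglial, 3 of 8 vascular and 4 of 6 CA1 markers. Of all leading probe sets, 23.7% were called higher. Calls of lower markers, and calls of CA3, dentate gyrus and choroid plexus markers, are not counted here. The summed signal of these 3 lists had overlapping ranges with columns and Trizol. Its medians were 1132 with columns and 1103 with Trizol for CA3, and 1107 and 1038 for dentate gyrus. For choroid plexus they were 571 and 550. The summed signal of the microglial markers was 15451 to 26361 with columns and 7171 to 10665 with Trizol, and that of the astrocyte markers 53994 to 83312 with columns and 37305 to 48623 with Trizol. Neither pair of ranges overlapped. The oligodendrocyte sums, 60968 to 104787 with columns and 45184 to 68929 with Trizol, did overlap. The part of these cells in the extraction differences of guidance genes was not tested.

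Several guidance genes have probe sets that differed from each other in their response to extraction. The leading probe set of Nrp1, a receptor for class 3 semaphorins, differed by 0.02 ± 0.12 (limma adjusted p = 0.922). Another Nrp1 probe set had signals of up to 311 with columns and 800 to 2330 with Trizol, with no overlap and a difference of -2.96 ± 0.19 (adjusted p = 1.66e-14). The other Nrp1 probe sets differed by -0.33 ± 0.12 (0.0245) and -0.01 ± 0.10 (0.964). Slit2 differed by -0.62 in its leading probe set, by -2.48 ± 0.34 (2.31e-07) in a second and by -0.29 ± 0.34 (0.549) in the third. Of the Epha5 probe sets, 3 were lower with columns and the other differed by -0.01 ± 0.13. Epha7 was not called by its leading probe set (-0.10 ± 0.11), while 2 others differed by -0.99 ± 0.13 and -0.67 ± 0.15 and were called. The other probe sets of Efna2 (1.02) and Sema5b (1.49) were called higher, beside uncalled leading ones at -0.31 and -0.16. Probe sets of Ntn1 (-1.32) and Sema6d (-1.65) were called lower, beside uncalled leading ones at -0.0007 and -0.21. Efnb2, also uncalled by its leading probe set, had another called in the same direction. Over the 23 called genes with more than 1 probe set, 30 of 48 other probe sets had the sign of the leading one, 9 genes had another probe set called in the same direction, and none had one called in the opposite direction, where 39.8% of all 45037 probe sets were called. The only other probe sets of Sema4b (-0.28), Slit1 (0.24), Ntn4 (-0.09) and Plxna3 (0.12) had the opposite sign and were not called. Those of Efna3, Plxnb1, Sema4a, Unc5b and Unc5c had the same sign. For handling, 11 of 16 other probe sets of 8 called genes had the sign of the leading one, and 3 genes (Sema6c, Sema3f and Epha5) had another one called, where 11.5% of all probe sets were called. In 4 genes whose leading probe set was not called for handling, another one was. These were probe sets of Epha3 (0.64 ± 0.15, limma adjusted p = 0.00689), Epha4 (0.32 ± 0.09, 0.0259), Plxnc1 (0.42 ± 0.14, 0.0491) and Dcc (-1.20 ± 0.39, 0.042), beside leading probe sets at 0.03 for Epha3, 0.30 for Epha4, -0.01 for Plxnc1 and -0.02 for Dcc. The Epha3 probe set had signals of 543 to 935 in handled and 166 to 541 in non-handled mice with columns, which did not overlap, and of 502 to 852 in handled and 400 to 654 in non-handled mice with Trizol, which did.

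**Figure D5:**
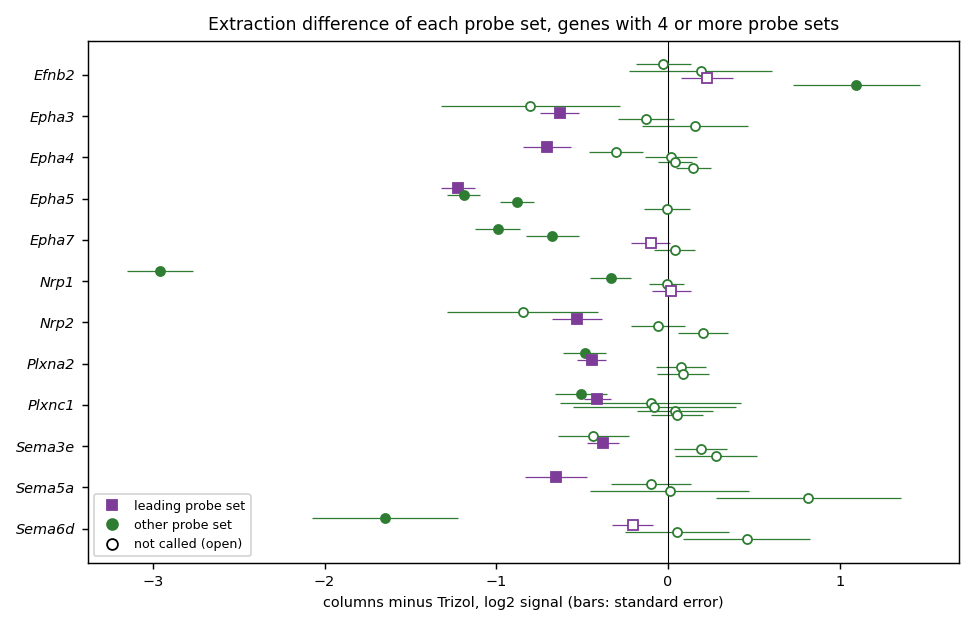
Columns minus Trizol difference in log2 signal of every probe set of the guidance genes with 4 or more probe sets. Squares are leading probe sets, circles are the others, bars are 1 standard error, and filled symbols are called. A probe set of Nrp1 at -2.96 lies far from its leading one at 0.02.

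Genes that carry the signal of these receptors inside the cell, from a list of 52 of which 48 were measured, gave 2 higher (4.17%) and 3 lower (6.25%) in handled mice, beside 4.47% and 9.7% of all leading probe sets. Rock1, a kinase that acts in growth cone collapse, rose by 0.50 ± 0.09 (limma adjusted p = 0.000819). Pak3, a kinase downstream of Rac and Cdc42, rose by 0.34 ± 0.10 (0.027). Cdk5r1, the activator of Cdk5, fell by 0.66 ± 0.11 (0.000243). Kalrn, a guanine exchange factor of spines, fell by 0.33 ± 0.10 (0.0273), and Rras, a small GTPase that plexins inactivate, fell by 0.33 ± 0.11 (0.0487). With columns against Trizol, 17 of the 48 were higher (35.4%) and 6 lower (12.5%), beside 23.7% and 17.5% of all leading probe sets. The largest rises were those of Rnd1 (1.03 ± 0.31), Rhoa (1.02 ± 0.09) and Cdk5r1 (0.93 ± 0.12), and the largest falls those of Rock1 (-1.27 ± 0.10), Trio (-1.08 ± 0.09) and Pak3 (-0.72 ± 0.11).

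Of 21 coreceptors and related cues, none rose and 2 fell (9.52%) in handled mice, beside 4.47% and 9.7% of all leading probe sets. Boc, which binds Sonic hedgehog in commissural axon guidance, differed by -1.70 ± 0.31 (limma adjusted p = 0.000492), and Dscam, an adhesion receptor that also binds netrin, by -0.45 ± 0.12 (0.0129). With columns against Trizol, 3 were higher (Gpc1, Rgma and Rtn4r, 14.3%) and 5 lower (Cdon, Chl1, Flrt2, Ptprd and Ptprs, 23.8%), beside 23.7% and 17.5% of all leading probe sets. The differences of the 21 genes ran from -1.79 to 0.71.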

How the data were processed

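The authors deposited 1 table of signal intensity from Affymetrix Expression Console (MAS 5.0), linear values with 1 scale factor per array. Signals were log2 transformed without further normalization. The members, families, gene lists and marker lists were chosen with earlier results of these data known. Of 45101 probe sets, 64 controls were left out of the tests. Probe sets were named from the platform annotation, of which 34958 had 1 gene, 932 several and 9211 none. No column of the table was left unused. Extraction method comes from the sample labels, which give it by position in the list of samples, and the resulting group sizes are those the series design states.

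Each probe set was tested two-sided with limma 3.58.1 in R 4.3.3 (lmFit, then eBayes with a trended prior) with handling and extraction as terms, Benjamini-Hochberg adjustment over 45037 probe sets and a threshold of 0.05. Interaction and within-method fits used the same steps, and the code was tested on simulated data. Each array gives 1 value per probe set, and the fits treat each mouse as a unit. Handling was applied to whole litters, and no litter term could be fitted. Values are given for every gene called for handling or the interaction, for the member of each family with the smallest handling p, and for up to 2 members per family with the largest extraction difference in each direction among those called with 1 direction in handled and non-handled mice. Sema3d, Sema4f, Sema6b, Epha7, Ephb4, Epha3, Epha4, Boc and Dscam were named after their values were seen. So were the further probe sets of Nrp1, Slit2, Plxnc1, Dcc and of other genes for which they are given. Alternatives were quantile normalization, the same mean and variance per array, an offset of 32 before the log, no trended prior, array weights, control-probe covariates, a filter on dim probe sets, another leading probe set, no extraction term, and leaving out each mouse. Python 3.11.15, pandas 2.3.3, scipy 1.17.1 and matplotlib 3.10.9 were used. The behavioral measures of these mice were not analysed here.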

Additional observations from a re-analysis of the deposited data

Results flagged for a closer look

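In 148 groups of mice of 1 handling and extraction class, 6 held a mouse apart from the others by Dixon's criterion, which chance meets in about 1 of 20 groups. Among non-handled mice extracted with columns, NH157 had an Epha2 signal of 3.56, with the nearest mouse at 20.8, and NH162 had an Unc5b signal of 491, with the nearest at 964. NH162 was also the mouse with the highest Actb control-probe ratio, at 3.24 log2 units, and its part in the Unc5b value was not tested. In the same class, NH142 had a Sema3e signal of 5763, above the nearest at 4106, and NH170 had an Ntn5 signal of 28.5, below the nearest at 97.6. In handled mice extracted with Trizol, H130 had an Nrp2 signal of 355, with the nearest mouse at 545. In handled mice extracted with columns, H108 had a Plxna4os1 signal of 1.30, with the nearest at 10.5.

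The handling difference of Sema6c was larger with columns than with Trizol, by -2.50 log2 units (limma interaction, adjusted p = 0.0424).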

How the results depend on the processing

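The counts of guidance genes called for handling, 3 higher and 8 lower, were 1 and 5 with quantile normalization and 1 and 5 without the extraction term. Without a trended prior 1 gene was higher, and with the same mean and variance per array 4 were lower. Over all 45037 probe sets, 1614 higher and 3571 lower became 459 and 1842 without the extraction term. They became 1002 and 3230 without a trended prior, and 1324 and 2621 with the control-probe covariates. With these covariates the handling calls of Sema4d (limma adjusted p = 0.11), Sema6d (0.19), Plxna3 (0.057) and Plxna4os1 (0.059) were lost. Of the EphA receptors, 1 was then called lower, where none had been. For the guidance genes, leaving out 1 mouse gave 1 to 4 higher and 5 to 10 lower. For extraction, 15 higher and 18 lower, the control-probe covariates gave 7 and 11, and leaving out 1 mouse gave 13 to 16 and 16 to 18. The 1 interaction fell to 0 with quantile normalization, the same mean and variance, no trended prior and array weights, and was 0 to 1 with a mouse left out. The 9 genes called with columns became 6 to 12 with a mouse left out, and the count within Trizol was 0 throughout. The median handling difference of the 70 genes, -0.02, became 0.11 with the same mean and variance. The median extraction difference, -0.0028, became 0.23 with quantile normalization and 0.26 with the same mean and variance. Within Trizol, Sema6d turned to -0.10 and Efnb2 to -0.16. The causes of these shifts were not tested. Dim probe sets such as Ntn5, Plxna4os1, Epha2 and Robo2 with columns are limited by signal near the low end of the scale. No paired analysis was possible because the mouse numbers are not shared between groups.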
